A study of Homo sapiens with 9 samples.

Results

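Of 20812 genes measured in the HER2-amplified human breast cancer line SKBR3, 56 were lower with one siRNA against PVRL4 and stayed at or above 0.85 of the control mean with a second one. They were chosen by their values in all 9 libraries. The control libraries had to average at least 5 RPM (reads of a gene scaled to the total of its library). Every siRNA 1 library had to lie below every control library, with a siRNA 1 mean of at most 0.72 and a siRNA 2 mean of at least 0.85 of the control mean. Of 9136 genes at the 5 RPM level, 62 met these limits, and 6 of them were left out by name. Because the choice used every library, the levels of the 56 genes are a description, and counts of called genes among them, given later beside the share over all genes, support nothing.

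The study lowered PVRL4, the gene of the adhesion protein nectin-4, by RNA interference and measured messenger RNA by Ion AmpliSeq, which reads 1 short amplicon per gene. Cells of all 3 groups were transfected with 10 nM siRNA in Lipofectamine RNAiMAX and treated for 48 h. The groups were PVRL4 siRNA 1, PVRL4 siRNA 2 (both from Integrated DNA Technologies) and an ON-TARGETplus non-targeting control siRNA (Horizon Discovery), with 3 libraries each from 100 ng of total RNA. One cell line was used, the control siRNA came from another supplier than the PVRL4 siRNAs, and no library of cells without siRNA was analysed here.

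A small interfering RNA is loaded into an Argonaute protein, which keeps one strand as a guide and cuts messages that pair with it over its full length. The same guide can also lower other messages that pair with it only in part, most often through its seed region and a site in the 3′ UTR, as a microRNA does. For that reason siRNAs of different sequence against the same gene are commonly used side by side, and genes that respond to one of them are looked at apart from genes that respond to both.

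A short sequence that the choice did not use was common among the 56 genes. All 16384 possible heptamers were counted in the annotated 3′ UTRs (the GENCODE v29 transcript with the longest 3′ UTR of each gene, GRCh38), and ranked by the share of the 54 genes with a 3′ UTR that held them minus the share of 8297 other genes at the 5 RPM level. CERK was not matched by its gene ID, and LINC00641 is a non-coding RNA. AGTCTGA came first. It stood in the 3′ UTR of 30 of the 54 genes (55.6%), against 12.7% of the other genes, a difference of 42.8 percentage points. The second heptamer, GTCTGAA, overlaps it and was held by 24 of the 54 genes (44.4%), against 11.98% of other genes. The third, ATTTTAA, is common in 3′ UTRs in general and was held by 70.4% of the genes, against 41.0% of other genes. The fourth, GTTCTAA, was held by 22 of the 54 genes (40.7%), against 11.5% of other genes. Unlike AGTCTGA, it does not stand in the PVRL4 transcript. AGTCTGA was picked by this ranking, so no test is attached to its share.

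The sites are printed for PVRL4 itself and for 10 of the genes whose levels are described next, with 8 bases on each side, 5′ to 3′ on the strand of the transcript. Capitals mark the heptamer, and coordinates are GRCh38.
PVRL4 site 1, chr1:161071521-161071543, minus strand: gctggtagAGTCTGAaattaggg
PVRL4 site 2, chr1:161071165-161071187, minus strand: ctcttcttAGTCTGAaatctgct
PRKCI, chr3:170304980-170305002, plus strand: ataacataAGTCTGAaagcaatg
NAPG, chr18:10551813-10551835, plus strand: ttattgtaAGTCTGAtacaaaat
DPY19L3, chr19:32483144-32483166, plus strand: tcttgcaaAGTCTGAatattttt
CNOT8, chr5:154875736-154875758, plus strand: tcaggacaAGTCTGAaacaaagt
PPAT, chr4:56393553-56393575, minus strand: ttttctgaAGTCTGAattcaatt
SLC35F5, chr2:113715110-113715132, minus strand: cagtgcctAGTCTGAaaaataac
OGFOD1, chr16:56476248-56476270, plus strand: tactgggaAGTCTGAaagagcta
AQR, chr15:34856736-34856758, minus strand: agtcaaaaAGTCTGAgtaaagct
PPARA, chr22:46235492-46235514, plus strand: gcttggacAGTCTGAgctgtagg
C5orf24, chr5:134859577-134859599, plus strand: ctgtaaaaAGTCTGAatagatac

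FNIP2, GNA12 and CBX5 held the heptamer at more than one place.
FNIP2, chr4:158905296-158905318, plus strand: aagtgtacAGTCTGAaaccgtat
FNIP2, chr4:158907927-158907949, plus strand: ttttgatcAGTCTGAatagatac
GNA12, chr7:2730010-2730032, minus strand: tctccctaAGTCTGAttctcatc
GNA12, chr7:2729020-2729042, minus strand: ctttaaacAGTCTGAcatattta
CBX5, chr12:54235194-54235216, minus strand: taagaaacAGTCTGAtcgtaagg
CBX5, chr12:54231705-54231727, minus strand: gtgtctgcAGTCTGAacctaacc
CBX5, chr12:54231386-54231408, minus strand: gagagcacAGTCTGActccctgc
In all, 8 of the 54 genes (14.8%) held 2 or more copies, against 1.80% of other genes. PVRL4 also held 2, at 1126 and 1482 bases into a 3′ UTR of 1666 bases. The flanking bases of the printed sites differed, except that the 8 bases after the heptamer were the same in C5orf24 and the second FNIP2 site. The base after the heptamer was A in a site of 17 of the 54 genes (31.5%, against 4.23% of other genes), and the base before it was A in 17 (31.5%, against 4.05%). After it, T was seen in 7 genes (12.96%, against 3.27%), C in 6 (11.1%, against 2.16%) and G in 6 (11.1%, against 4.36%). Before it, T was seen in 9 genes (16.7%, against 2.41%), C in 7 (12.96%, against 4.06%) and G in 1 (1.85%, against 3.59%). All these shares were taken over genes with and without the heptamer, so they carry its own excess.

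The 3′ UTRs of the 54 genes were long, with a median of 2531 bases, against 1442 bases in other genes, so the shares were also read per length. The 54 genes held 39 copies, or 0.252 per kilobase, against 0.0732 per kilobase in other genes. Among 3′ UTRs of at least 1500 bases, 25 of 37 (67.6%) held a copy, against 21.6% of other genes. Among shorter ones it was 5 of 17 (29.4%), against 4.33%. In coding sequence the shares lay closer, at 10 genes (18.5%), against 11.02%, and in 5′ UTRs 1 gene (1.85%) held it, against 1.08%. With the transcript of longest coding sequence taken for each gene, AGTCTGA again came first, with 28 of 54 genes (51.9%), against 10.6%.

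**Figure D1:**
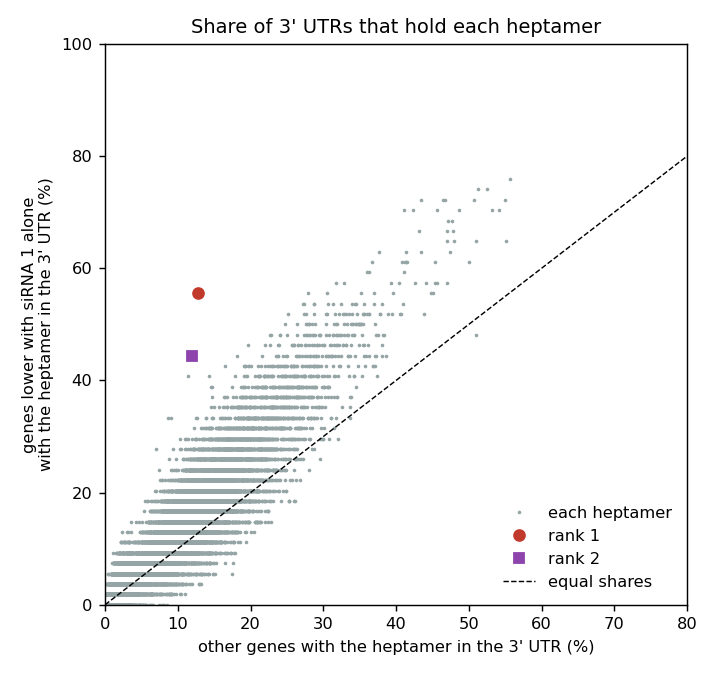
Share of 3′ UTRs that held each of 16384 heptamers, in the genes lower with siRNA 1 alone (vertical axis, %) and in other genes at the same level (horizontal axis, %), with the dashed line at equal shares. The heptamer of rank 1 lies at 55.6% against 12.7%, apart from the cloud, and rank 2 at 44.4% against 11.98%.

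**Figure D2:**
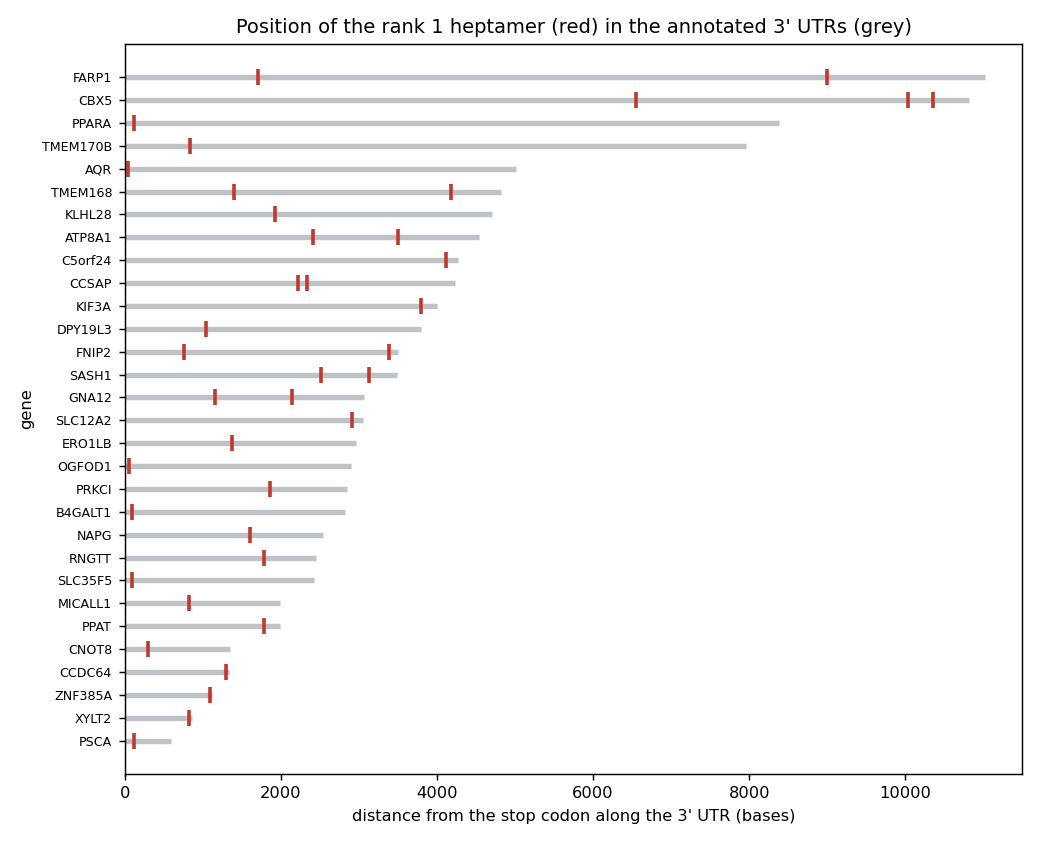
Annotated 3′ UTRs (grey bars, to scale, in bases from the stop codon) of the 30 genes with the heptamer of rank 1, and its positions (red). The copies stood near the stop codon in some genes (AQR at 42 bases) and near the end of the 3′ UTR in others (C5orf24 at 4118 of 4270 bases).

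Other sets of genes chosen by mirrored limits did not have this share. Of 190 genes with a 3′ UTR that were lower with siRNA 2 alone, 24 (12.6%) held AGTCTGA. Their own leading heptamer was CAGGTCA, in 59 genes (31.1%, against 10.6% of other genes), and 5 of the 54 genes lower with siRNA 1 alone (9.26%) held that one. Of 64 genes higher with siRNA 1 alone, 6 (9.38%) held AGTCTGA. Neither siRNA sequence was given in the sources used here, so whether the letters pair with a strand of siRNA 1 was not tested. None of 2370 mature human miRNAs in the RefSeq table (GRCh38.p14) carried the reverse complement, UCAGACU, at bases 2 to 8. Shorter matches and other positions in the miRNA were not searched.

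The choice limited the 56 genes to a narrow range of change with siRNA 1. Their siRNA 1 means lay at 51.5% to 71.97% of the control means, with a median of 66.9%. Only 5 were below 60%, 16 lay between 60% and 65%, 29 between 65% and 70% and 6 above that. With siRNA 2 the means lay at 85.1% to 136% of control, with a median of 95.6%, and 21 of the 56 were above the control mean. In bulk RNA, fewer cells with a message and less of it per cell cannot be told apart.

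The read support of the genes varied widely (RPM counts the reads of an amplicon and does not rank genes by message number). Control means ran between 5.08 and 238 RPM, with 14 genes at 5 to 10 RPM, 26 at 10 to 50 RPM and 16 at 50 RPM or more. The lowest gene still had 25 reads in its lowest siRNA 1 library. The siRNA 1 replicates of a gene had a coefficient of variation of 2.10% to 37.6%, with a median of 13.1%. ITPK1, RNGTT and FNIP2 were among the tightest, and ATP8A1 was the widest.

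For 44 of the 56 genes every siRNA 2 library was also above every siRNA 1 library, beside 7.84% of all genes at the 5 RPM level. For the other 12, PSRC1, PPP3CB, SASH1, ZNF385A, CCDC64, CNTROB, PSCA, TMEM45A, ERO1LB, IGIP, MAP7D3 and B4GALT1, the 2 groups overlapped. The siRNA 2 and control libraries overlapped for 55 genes and did not for SERPINA3, beside 14.6% without overlap among all genes at that level. Every siRNA 1 library below every control library, which the choice required, was met by 6.18% of those genes.

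**Figure D3:**
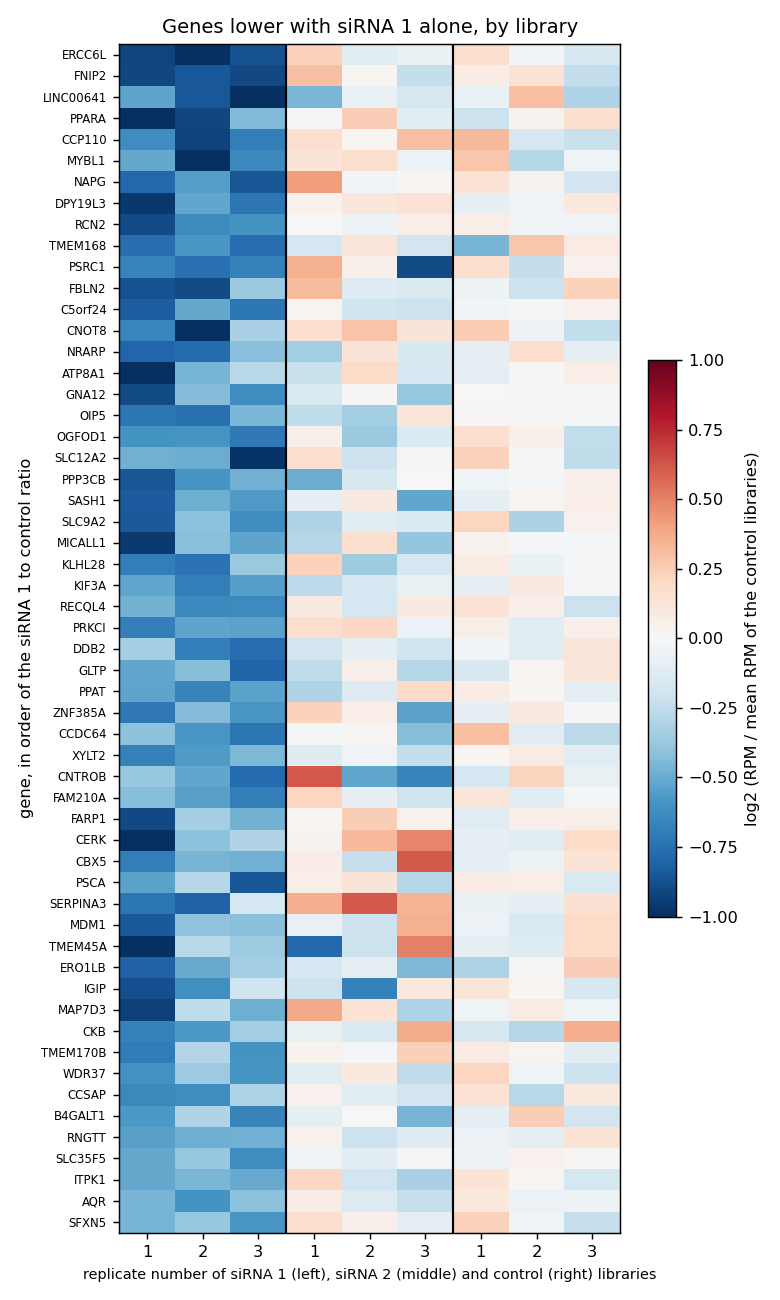
Level of each of the 56 genes (rows) in each library (columns, siRNA 1, siRNA 2 and control), as log2 of its RPM over the mean RPM of the control libraries. All 3 siRNA 1 columns are blue in every row, as the choice required, and the siRNA 2 columns mix both colours.

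The 56 genes are grouped by role below. The roles were assigned with the values known, and how common each role is among all genes was not counted, so group sizes say nothing. Of other genes at the 5 RPM level, 12.7% held the heptamer. Genes of centrioles, cilia, microtubules and the spindle numbered 10, and 3 of them (CCSAP, KIF3A and CCDC64) held the heptamer. ERCC6L, a DNA translocase that resolves fine DNA bridges in anaphase, was the lowest of the 56 relative to control. It had 9.76, 8.62 and 10.1 RPM in siRNA 1 libraries, 21.6, 17.1 and 17.6 RPM in siRNA 2 libraries and 20.7, 18.1 and 16.5 RPM in control libraries. The siRNA 1 libraries lay close together and below the other 6, at 51.5% of the control mean and a log2 change of -0.89 ± 0.15 (limma estimate ± SE on log2(RPM + 1), here and in the following). It had no copy of the heptamer in its 3′ UTR.

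CCP110 caps the ends of centrioles and holds back the growth of cilia. It had 29.5, 23.8 and 28.1 RPM with siRNA 1, 50.8, 45.8 and 55.7 RPM with siRNA 2 and 56.7, 40.4 and 38.8 RPM with control siRNA. One control library stood above the other two, all siRNA 2 libraries lay within the control range, and the siRNA 1 mean was 59.9% of control (log2 change -0.704 ± 0.15). OIP5, a subunit of the complex that prepares centromeres for CENP-A, had 34.4, 33.8 and 41.5 RPM in siRNA 1 libraries, 47.6, 44.96 and 61.8 RPM in siRNA 2 libraries and 57.2, 57.3 and 55.9 RPM in control libraries. The control libraries were nearly equal, the siRNA 2 libraries fell on both sides of them, and the siRNA 1 mean was 64.4% of control.

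PSRC1, a spindle-associated microtubule protein, had 9.85, 9.296 and 9.81 RPM with siRNA 1, 19.97, 16.2 and 8.39 RPM with siRNA 2 and 17.6, 13.3 and 16.1 RPM with control siRNA. The third siRNA 2 library was below the siRNA 1 libraries, so siRNA 1 and siRNA 2 overlapped here. CNTROB, a protein of the daughter centriole, also overlapped, with 4.06, 3.68 and 3.08 RPM in siRNA 1 libraries, 8.09, 3.68 and 3.34 RPM in siRNA 2 libraries and 4.68, 6.16 and 5.03 RPM in control libraries. The remaining genes of the group lay at 66.5% (KIF3A, a subunit of the kinesin that carries cargo into cilia), 67.6% (CCDC64, a dynein adaptor), 68.8% (MDM1, a centriole protein), 69.1% (MAP7D3, a microtubule binding protein) and 69.96% (CCSAP, of centrioles, cilia and spindles) of the control mean.

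Genes of chromatin, DNA repair, transcription and RNA numbered 11, and 7 of the 10 with a 3′ UTR held the heptamer. CBX5, the heterochromatin protein HP1α, held 3 copies. It had 147, 173 and 171 RPM in siRNA 1 libraries, 252, 203 and 365 RPM in siRNA 2 libraries and 223, 230.3 and 262 RPM in control libraries. The third siRNA 2 library was the highest of the 9 and the siRNA 1 libraries were the lowest, at 68.7% of the control mean (log2 change -0.54 ± 0.16). AQR, an RNA helicase of the spliceosome, had 145, 132 and 151 RPM with siRNA 1, 211, 183 and 171 RPM with siRNA 2 and 216, 193 and 193 RPM with control siRNA. Its siRNA 1 libraries were below all others and its siRNA 2 libraries reached into the control range, with means at 71.3% and 94.02% of control.

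PPARA, a nuclear receptor that senses fatty acids, had 5.99, 6.49 and 8.96 RPM in siRNA 1 libraries, 12.1, 14.4 and 11.3 RPM in siRNA 2 libraries and 10.5, 12.5 and 13.6 RPM in control libraries. Its siRNA 1 mean was 58.6% of control, though the third siRNA 1 library came close to the lowest control library. OGFOD1, a prolyl hydroxylase of a ribosomal protein, had 80.5, 80.9 and 74.3 RPM with siRNA 1, 127, 94.4 and 111 RPM with siRNA 2 and 136, 127 and 103 RPM with control siRNA. Its siRNA 1 replicates were tight, and the second siRNA 2 library came closest to them.

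CNOT8, a deadenylase subunit of the CCR4-NOT complex, had 5.505, 4.07 and 6.91 RPM in siRNA 1 libraries, 9.68, 10.6 and 9.45 RPM in siRNA 2 libraries and 10.3, 8.34 and 7.29 RPM in control libraries. All its siRNA 2 libraries were in the upper part of the control range or above it.

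RNGTT, the capping enzyme of messenger RNA, and ZNF385A, a zinc finger protein, also held the heptamer and lay at 70.5% and 67.3% of the control mean. MYBL1 (a MYB family transcription factor), RECQL4 (a RecQ DNA helicase) and DDB2 (a subunit that recognises ultraviolet damage) held none and lay at 60.1%, 66.8% and 66.95%. The long non-coding RNA LINC00641, which has no 3′ UTR, had 8.11, 6.49 and 5.51 RPM in siRNA 1 libraries, 8.48, 11.1 and 10.4 RPM in siRNA 2 libraries and 11.2, 14.4 and 9.46 RPM in control libraries. It was one of the 3 genes nearest the siRNA 2 limit, with a siRNA 2 mean at 85.7% of control.

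Genes of the secretory pathway, membrane traffic and lipids numbered 11, and 8 of the 10 with a matched 3′ UTR held the heptamer. NAPG, the gamma form of the SNAP adaptor that recycles SNARE proteins after membrane fusion, had 26.1, 30.6 and 24.8 RPM with siRNA 1, 60.1, 44.2 and 45.5 RPM with siRNA 2 and 49.4, 46.04 and 39.3 RPM with control siRNA. The first siRNA 2 library was the highest of the 9, and the siRNA 1 mean was 60.5% of control (log2 change -0.705 ± 0.14). DPY19L3, an enzyme that attaches mannose to tryptophan, had 20.7, 28.1 and 24.5 RPM in siRNA 1 libraries, 41.3, 43.6 and 44.6 RPM in siRNA 2 libraries and 38.1, 39.4 and 43.4 RPM in control libraries. Its siRNA 2 and control libraries were mixed and its siRNA 1 libraries lay well below them, at 60.6% of control.

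RCN2, a calcium binding protein of the endoplasmic reticulum, held no heptamer. It had 86.4, 104 and 106 RPM with siRNA 1, 161, 155 and 169 RPM with siRNA 2 and 168, 158 and 157 RPM with control siRNA. Means were 98.9 ± 10.9 RPM with siRNA 1, 162 ± 6.904 RPM with siRNA 2 and 161 ± 6.35 RPM with control siRNA (SD, n = 3 each), so siRNA 2 and control libraries overlapped and siRNA 1 libraries lay below both. SLC35F5, of a solute carrier family that includes nucleotide sugar transporters, had 49.1, 53.9 and 45.6 RPM in siRNA 1 libraries, 68.2, 64.7 and 68.98 RPM in siRNA 2 libraries and 67.7, 72.001 and 70.5 RPM in control libraries. Its siRNA 1 mean was 70.7% of control and its siRNA 2 mean 96.1%.

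ATP8A1, a phospholipid flippase with 2 copies of the heptamer, had 12.1, 23.8 and 27.1 RPM with siRNA 1, 28.2, 37.6 and 29.1 RPM with siRNA 2 and 30.9, 33.2 and 34.5 RPM with control siRNA. Its first siRNA 1 library was far below the other two. CERK, the ceramide kinase, was one of the 5 genes highest with siRNA 2, with 16.4, 24.98 and 27.1 RPM in siRNA 1 libraries, 34.1, 41.8 and 46.7 RPM in siRNA 2 libraries and 31.4, 30.7 and 37.8 RPM in control libraries. Its siRNA 2 mean was 123% of control, and its siRNA 1 libraries were widely spread below. The Golgi enzymes B4GALT1 and XYLT2, which build glycan chains, lay at 70.5% and 67.8% of control, the oxidase ERO1LB at 68.9%, the endosome protein MICALL1 at 65.4% and the glycolipid transfer protein GLTP at 67.1%.

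Signalling genes numbered 9, of which 6 held the heptamer. PRKCI, an atypical protein kinase C of the cell polarity complex, had 141, 157 and 156 RPM in siRNA 1 libraries, 254, 261 and 217 RPM in siRNA 2 libraries and 236, 209 and 234 RPM in control libraries. The siRNA 1 libraries were tight and the siRNA 2 libraries lay within or above the control range, with log2 changes of -0.58 ± 0.102 for siRNA 1 and 0.11 ± 0.102 for siRNA 2. GNA12, a G protein alpha subunit, had 68.1, 93.8 and 82.3 RPM with siRNA 1, 115, 128 and 97.3 RPM with siRNA 2 and 127, 128 and 125 RPM with control siRNA. The control libraries were nearly equal, the siRNA 2 libraries reached lower, and the siRNA 1 mean was 64.2% of control.

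FNIP2, a partner of folliculin in nutrient signalling, had 2 copies of the heptamer and the second lowest ratio of the 56. It had 4.73, 4.94 and 4.76 RPM in siRNA 1 libraries, 10.98, 9.01 and 7.54 RPM in siRNA 2 libraries and 9.35, 9.85 and 7.49 RPM in control libraries, so that siRNA 1 libraries stood at 54.1% of control with a coefficient of variation of 2.30%. PPP3CB, a catalytic subunit of the phosphatase calcineurin, had none and had 27.8, 33.4 and 36.05 RPM with siRNA 1, 35.5, 44.96 and 50.4 RPM with siRNA 2 and 48.8, 49.8 and 52.1 RPM with control siRNA. Its first siRNA 2 library fell among the siRNA 1 libraries.

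FARP1 and the scaffold protein SASH1, both with 2 copies, lay at 68.4% and 65.1% of control. KLHL28, a kelch protein with 1 copy, lay at 66.4%. NRARP, an inhibitor in the Notch pathway, and ITPK1, an inositol phosphate kinase, had none and lay at 63.7% and 71.3%.

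Among enzymes of metabolism, PPAT, which catalyses the first committed step of purine synthesis, had 75.5, 68.3 and 75.1 RPM in siRNA 1 libraries, 88.2, 99.2 and 125 RPM in siRNA 2 libraries and 114, 109 and 102 RPM in control libraries. Its siRNA 1 libraries were close together, and its siRNA 2 libraries ran below and above the control range. CKB, the brain form of creatine kinase, had 46.4, 49.8 and 58.6 RPM with siRNA 1, 70.3, 67.3 and 95.9 RPM with siRNA 2 and 66.3, 60.9 and 95.2 RPM with control siRNA, without the heptamer. Its highest values were in siRNA 2 library 3 and control library 3. Of the transporters, SLC12A2 (a sodium, potassium and chloride cotransporter, with the heptamer) lay at 64.5%, SLC9A2 (a sodium and proton exchanger) at 65.4% and SFXN5 (a mitochondrial sideroflexin) at 71.97% of control.

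Among secreted and surface proteins, SERPINA3, a serine protease inhibitor of the acute phase, had the highest siRNA 2 ratio of the 56. It had 3.38, 3.19 and 4.95 RPM in siRNA 1 libraries, 7.19, 8.53 and 7.06 RPM in siRNA 2 libraries and 5.34, 5.21 and 6.21 RPM in control libraries. All its siRNA 1 libraries were below the control libraries and all its siRNA 2 libraries above, with means at 68.7% and 136% of control. FBLN2, a matrix protein, had 11.7, 11.5 and 16.5 RPM with siRNA 1, 26.7, 19.6 and 19.4 RPM with siRNA 2 and 20.6, 18.5 and 25.1 RPM with control siRNA. PSCA (a surface antigen, the only 1 of these 4 with the heptamer) and IGIP lay at 68.7% and 69.01% of control. The 6 genes of less known role, C5orf24, TMEM168, TMEM170B, TMEM45A, FAM210A and WDR37, lay at 61.6% to 69.9%, and C5orf24, TMEM168 and TMEM170B held the heptamer. C5orf24 had 13.3, 16.6 and 14.3 RPM with siRNA 1, 24.1, 20.5 and 20.3 RPM with siRNA 2 and 23.1, 23.3 and 24.3 RPM with control siRNA. Its siRNA 1 mean was 62.4% of control (log2 change -0.65 ± 0.13) and its siRNA 2 mean was 91.8%.

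**Figure D4:**
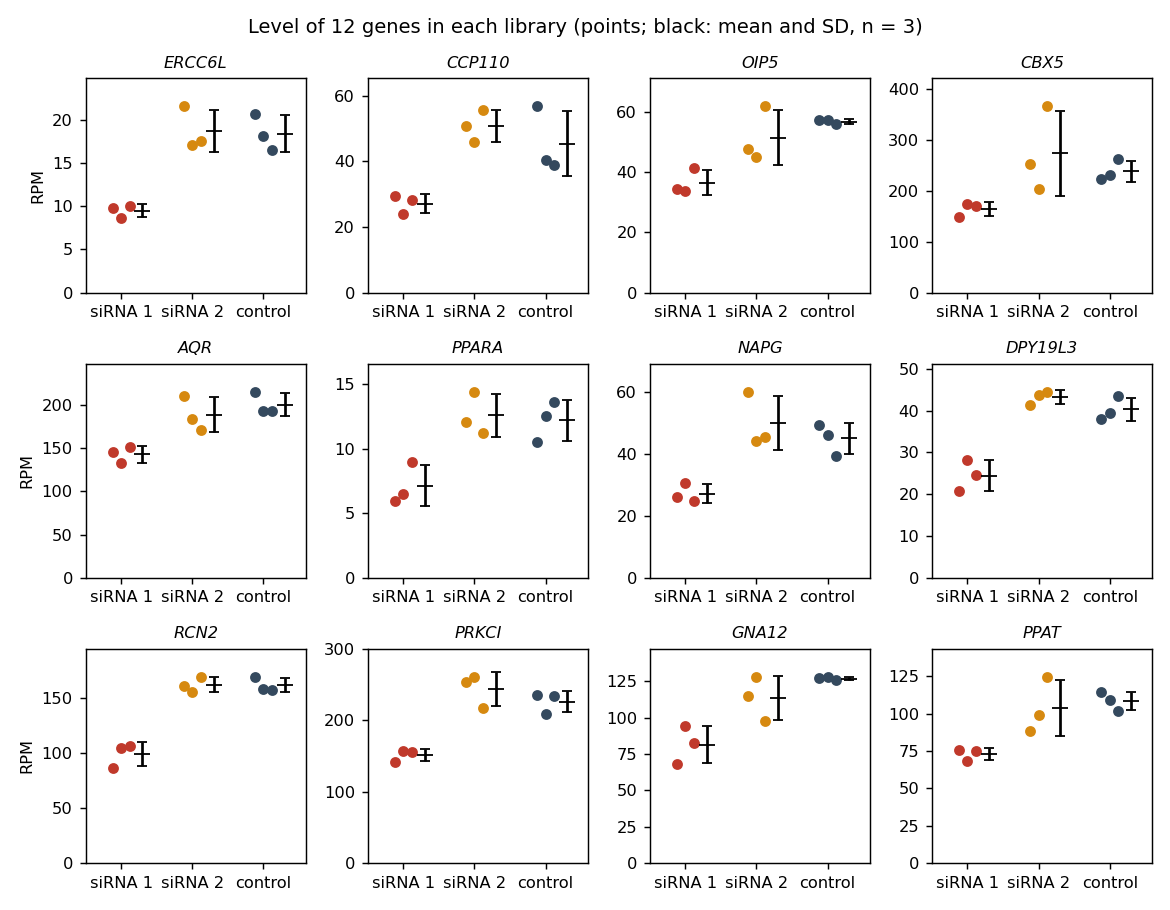
RPM of 12 genes, picked after their values were known to cover the main roles, in each siRNA 1, siRNA 2 and control library (points), with mean and SD (black, n = 3). The siRNA 1 points lie below the control points in every panel and the siRNA 2 points lie around them.

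Genes with and without the heptamer had similar medians of change. The 30 with it had a median siRNA 1 level of 66.7% of control, and the 24 without it 67.0%. The read support of their amplicons had medians of 32.6 RPM and 13.1 RPM in control libraries. A copy number of 2 or more went with a median of 64.7% over 8 genes. These values come from the contrast that chose the genes and are given without a test.

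With limma on log2(RPM + 1), adjusted by Benjamini-Hochberg over all 11158 genes tested, 13 of the 56 were called lower with siRNA 1 at an adjusted p under 0.05, beside 0.215% of all genes. They were AQR, C5orf24, CCP110, DPY19L3, ERCC6L, GNA12, NAPG, OGFOD1, OIP5, PPAT, PRKCI, RCN2 and SLC35F5. The choice used this contrast, and nothing is read from the count. With the replicate number as a block, 33 were called, beside 0.681%. Leaving out siRNA 1 library 1, 2 or 3 gave 2, 8 or 4, leaving out siRNA 2 library 1, 2 or 3 gave 11, 8 or 17, and leaving out control library 1, 2 or 3 gave 1, 4 or 3.

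None of the 56 was called with siRNA 2 against control by limma, beside 0.681% of all genes in either direction. None was at an unadjusted p under 0.05, and edgeR and DESeq2 on recovered reads called 0. The choice held siRNA 2 means at or above 0.85 of control, so nothing is read from these counts. For siRNA 2 against siRNA 1, limma called 16 higher, beside 0.592%, and with the replicate block 39, beside 2.81%. The limits put the siRNA 2 mean above the siRNA 1 mean for every one of the 56, so nothing is read from this count either. That count was 6 or 10 without siRNA 1 library 1 or 2 and 9 or 8 without siRNA 2 library 1 or 2. The median log2 change over the 56 was -0.55 with siRNA 1, against 0.014 over all genes, and -0.070 with siRNA 2, against -0.022 over all genes. Both comparisons share the control libraries.

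The siRNA 1 libraries differed from each other. The median level of the 56 genes was 61.8%, 68.4% and 67.3% of the control mean in siRNA 1 libraries 1, 2 and 3, 102%, 97.0% and 90.7% in the siRNA 2 libraries and 100.49%, 99.1% and 99.0% in the control libraries. In the first siRNA 1 library 29 of the genes had their lowest value of the 9, in the second 12 and in the third 14. Interferon response genes (42 written) also differed, with summed levels of 10773, 2537 and 5590 RPM in the siRNA 1 libraries, 1008 to 1129 RPM in siRNA 2 libraries and 1016 to 1074 RPM in control libraries. Of 40 tested, 34 were called higher with siRNA 1 by limma, beside 0.636% of all genes. The part of the interferon genes in the lower levels of the 56 was not tested.

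Genes at the 5 RPM level outside the 56 were the other genes of the ranking, and the limits on change had set nearly all of them apart. The heptamer was then read in all genes outside the 56, so this reading is not independent of the ranking. Of 9949 such genes tested, 8708 held no copy, 1063 held 1 and 178 held 2 or more. With siRNA 1 their median log2 changes against control were 0.020 with no copy, -0.025 with 1 and -0.052 with 2 or more, and 44.2%, 56.3% and 61.8% of them were below 0. With siRNA 2 the medians were -0.021, -0.030 and -0.062, so genes with 2 or more copies had the lowest median with either siRNA. Among other genes at the 5 RPM level, 21.6% of 3′ UTRs of at least 1500 bases held a copy, against 4.33% of shorter ones. The medians by copies were not split by that length. By limma, 4 of the 1241 genes with a copy and 0 of the 8708 without one were called lower with siRNA 1, beside 0.215% of all genes. Called higher were 9 and 61, beside 0.636% of all genes. Of the 56, set aside here, 9 with a copy and 4 without one were called lower. Genes left out by name were set aside too, so nothing is read from these counts.

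Library by library, the median of genes with a copy minus that of genes without was -0.057, -0.053 and -0.050 in the siRNA 1 libraries, -0.016, -0.024 and -0.024 in the siRNA 2 libraries and 0.013, -0.0018 and -0.0060 in the control libraries (log2 units relative to the control mean of each gene). The siRNA 1 libraries averaged -0.0533 ± 0.0037, the siRNA 2 libraries -0.0215 ± 0.0046 and the control libraries 0.0019 ± 0.0103 (SD, n = 3 each). Neither siRNA overlapped the control libraries, which the scaling to the control mean holds near 0. A two-sided exact permutation test over libraries gave p = 0.1 for siRNA 1 and for siRNA 2, the smallest that 3 against 3 can give. Within replicate numbers all 3 differences were below 0 for each siRNA (means -0.0551 for siRNA 1 and -0.0234 for siRNA 2), and the exact permutation test of their signs gave p = 0.25, again the smallest possible. Neither test could pass a threshold of 0.05. The heptamer was picked with these same libraries, and each gene was scaled to its control mean. Nothing is read from these p-values. Heptamers held by at least 100 of these genes, 15614 in all, were ranked by limma log2 changes. The measure, unlike that of the libraries, was the median change of genes with a heptamer minus that of genes without it. AGTCTGA, at -0.047 with siRNA 1 and -0.014 with siRNA 2, ranked 22 and 11566. Other heptamers thus differed more with siRNA 1. The first 5 were each held by at most 121 genes, against 1241 for AGTCTGA, and those between them and AGTCTGA were not looked at.

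**Figure D5:**
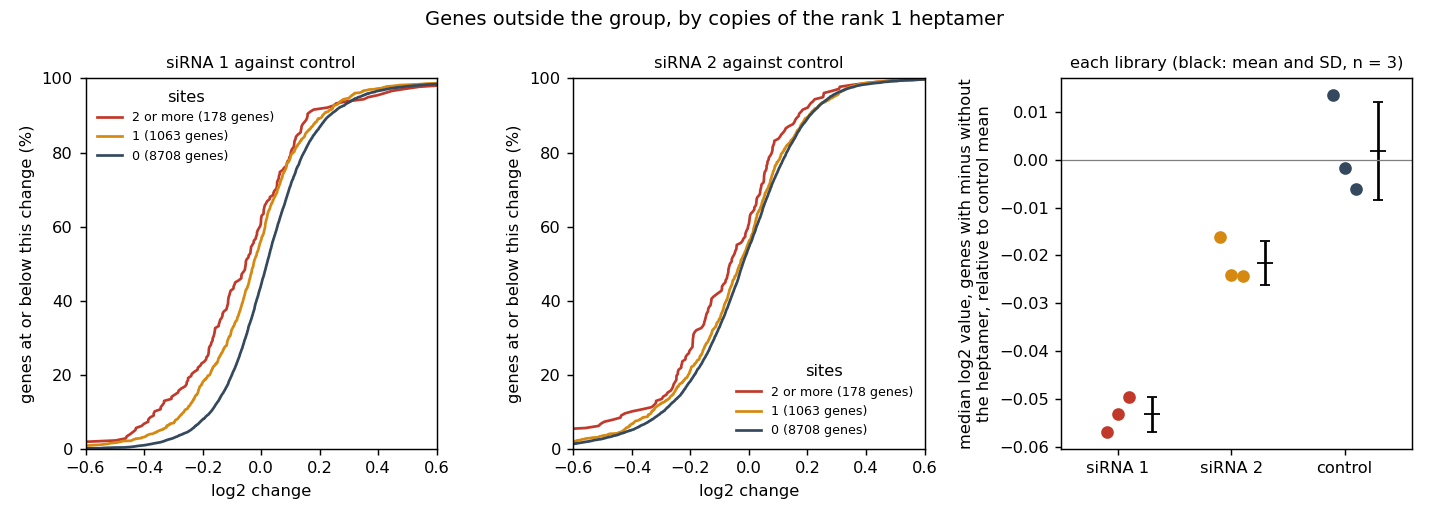
Cumulative share of genes outside the 56 by log2 change (left, siRNA 1 against control; middle, siRNA 2 against control) for 2 or more, 1 and 0 copies of the heptamer, and (right) the median log2 value of genes with minus without a copy in each library, with mean and SD (n = 3). With siRNA 1 the curves lie in order of copies over most of their range. The siRNA 1 libraries average -0.0533, the siRNA 2 libraries -0.0215 and the control libraries, whose mean is the reference, 0.0019.

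Close relatives of the genes were set beside them. For 21 of the 56, 29 family members chosen after the values were seen were tested (such as PRKCZ for PRKCI, CBX1 and CBX3 for CBX5, NAPA for NAPG and GNA13 for GNA12). None of the 29 was called by limma with siRNA 1, beside 0.851% of all genes, none was at an unadjusted p under 0.05, beside 674 of 11158 genes, and their median log2 change was -0.038. The 23 at 5 RPM or more lay at 77.9% to 120% of the control mean. Of the 28 with a 3′ UTR, 4 held the heptamer, beside 12.7% of other genes at the 5 RPM level. These were CBX1, GNA13, CNOT7 and RECQL5, with siRNA 1 means at 105.6%, 88.8%, 100.4% and 103.4% of control. CBX1 had a control mean of only 2.35 RPM. An amplicon shared by close relatives could not be told apart.

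Promoters and positions were also compared. Of 49 with a RefSeq promoter (GRCh38.p14), shares with a motif on either strand lay near those of 6920 other genes. They were 4.08% and 4.77% for the TATA box (TATAAA), 44.9% and 37.8% for CCAAT, 73.5% and 72.9% for the GC box (GGGCGG), 4.08% and 3.90% for the AP-1 site (TGANTCA), 22.4% and 22.2% for the ETS site (CCGGAAG) and 12.2% and 9.54% for the cell cycle homology region (TTTGAA). The interferon response core (GAAA, 2 free bases, GAAA) stood in none, against 2.47%. Median promoter GC content was 65.3%, against 65.7%. The annotated gene span had a median of 43263 bases, against 32104 bases in other genes. Chromosomes 5, 12 and 14 held the most, 5 genes each (9.09%), against 4.40%, 5.54% and 3.68% of genes at the 5 RPM level. Others held less than their share, such as chromosome 1 (5.45%, against 10.9%), 11 (1.82%, against 6.01%) and 19 (1.82%, against 6.22%).

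Pathway lists held few of the genes. Of 21 lists, 5 held 1 each (NAPG among vesicle fusion genes, DPY19L3 among its own family, ERCC6L among spindle and kinetochore genes, PPP3CB among phosphatase subunits and DDB2 among ubiquitin ligases) and 16 held none. Of 42 spindle and kinetochore genes tested, 1 was called lower with siRNA 1 by limma (beside 0.215% of all genes) and 0 higher (beside 0.636%), with a median log2 change of -0.11. The gene called was ERCC6L, one of the 56. Of 12 genes of the RNA interference machinery, 0 were called in either direction by limma with siRNA 1 (0.851% of all genes were) and 0 were at an unadjusted p under 0.05, with a median of 0.074.

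PVRL4 itself had 5.01 ± 0.866 RPM with siRNA 1, 2.96 ± 0.411 RPM with siRNA 2 and 9.81 ± 1.89 RPM in control libraries (SD, n = 3 each). Libraries held 10017130 to 10707777 reads, and 1 read was worth 0.0934 to 0.0998 RPM. Of 8 markers of HER2-amplified luminal cells, 7 were at 1 RPM or more on average. CDH1 was near 0, at 0.0103 RPM. Of 8 leukocyte markers none reached 1 RPM, and their summed level was at most 0.561 RPM with siRNA 1, 1.16 RPM with siRNA 2 and 0.296 RPM in control libraries. Some markers of other types did reach it, namely 1 of 7 for fibroblasts (COL1A1, 4.63 RPM over all libraries), 1 of 5 for endothelial cells (CDH5, 7.32 RPM) and 2 of 5 for basal mammary cells (ACTA2 highest, 3.25 RPM). Their summed levels were 4.25 to 7.47, 6.16 to 9.85 and 4.84 to 6.16 RPM with siRNA 1, 5.06 to 5.43, 4.48 to 10.3 and 4.29 to 6.87 RPM with siRNA 2 and 3.82 to 5.42, 4.93 to 9.45 and 4.45 to 6.31 RPM in control libraries.

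The limits of the choice cut through a continuum. Just inside the siRNA 1 limit lay SFXN5 (71.97% of control), AQR and ITPK1 (both 71.3%), and just outside lay SULT1A1 (72.1%), GNAZ (72.4%) and GABRQ (72.5%). At the siRNA 2 limit, ERO1LB (85.1%), IGIP (85.6%) and LINC00641 (85.7%) were inside and PLEKHA1 (84.1%), FSTL1 (83.4%) and NKTR (82.7%) outside. At the level limit, ERO1LB (5.08 RPM), TMEM45A (5.17 RPM) and CNTROB (5.29 RPM) were inside and DIXDC1 (4.94 RPM), ABCC2 (4.81 RPM) and ENOX2 (4.71 RPM) outside. Mirrored limits chose 200 genes lower with siRNA 2 alone, 67 higher with siRNA 1 alone and 19 higher with siRNA 2 alone, and 7 were lower with both.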

How the data were processed

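The deposited table holds RPM values, which the authors made by scaling the reads of each gene to the total of its library, for 20812 genes in 9 libraries. Per the submitters' processing notes the genome build was hg19. The aligner and counter are not given in the sources used here. Each value was a whole multiple of 1 read within 0.1 read (100% in each library), and library totals were 10017130 to 10707777 reads. Amplicon reads carry no molecular identifiers. The labels do not call the replicates separate cultures, so the spread behind a p-value may be technical.

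The 56 genes were found by applying the stated limits to the RPM table. Tests used limma 3.58.1 in R 4.3.3 on log2(RPM + 1), with its prior variance following mean level, over 11158 genes averaging 1 RPM or more. The 3 groups shared 1 spread. Two-sided p-values were adjusted by Benjamini-Hochberg over all genes. Log2 changes on this scale understate those of low genes. edgeR 4.0.16 (quasi-likelihood) and DESeq2 1.42.0 were run on the recovered whole reads. The limma step was also run on simulated libraries drawn independently of each other. That run lacked the deviations shared by replicate number that are described below, and nothing is read from it.

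The titles number the replicates of each group and do not say that equal numbers belong together. Deviations from group means correlated at 0.252 to 0.417 in the 9 pairs that share a number and at -0.340 to -0.0275 in the other 18. Deviations cancel within each group, so positive values in the 9 go with negative ones in the 18. Blocked values are given where they change a count.

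The members, the lists and the role groups were chosen with earlier results of these data known. Named genes are PVRL4, the 25 members with the lowest siRNA 1 ratio among those at 10 RPM or more, the 5 highest in control, the 5 highest and the 5 lowest with siRNA 2, the 5 with the smallest relative spread with siRNA 1, the 3 genes on each side of each limit and members of a list. Other members are named by role. 3′ UTRs came from GENCODE v29 (GRCh38) by Entrez gene ID, with 54 of 56 matched, and 49 had a RefSeq promoter. Protein sequences were not used here. Alternatives were other pseudocounts, filters, scalings, tools, limits, transcripts, the replicate block and leaving out each library.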

Additional observations from a re-analysis of the deposited data

How the results depend on the processing

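Of 717 recomputed changes of the 40 named genes with siRNA 1, 10 moved by more than the spread, and of 717 with siRNA 2, 1 moved. The choice of the genes fixes the direction with siRNA 1, so the lack of reversals says nothing of stability. The count called lower with siRNA 1 (13) was 33 with the replicate block, 5 with no filter on low values and 25 with DESeq2, and leaving out 1 library gave 1 to 17. The count called higher with siRNA 2 than with siRNA 1 (16) was 39 with the replicate block, 7 with no filter and 30 with DESeq2, and leaving out 1 library gave 6 to 14. No setting called any of the 56 with siRNA 2 against control, where the choice limited the change. The replicate block changed no other count by more than 1.5 times. The number of genes chosen was 21 with a siRNA 1 ratio of at most 0.65, 31 with a siRNA 2 ratio of at least 0.95 and 50 to 95 with 1 library left out, with 95 without the second siRNA 1 library, of which 53 were among the 56. TMM and median-of-ratios scaling chose 63 and 65. The median log2 change with siRNA 1 was -0.48 with a pseudocount of 5 and -0.60 to -0.52 with 1 library left out. The cause of these moves was not tested. The difference of genes outside the 56 with the heptamer stayed between -0.0591 and -0.0465 in all settings tried, which were chosen after seeing the data. Groups of 3 libraries and, for the lowest genes, 25 reads limit the precision.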
